A study of Mus musculus with 42 samples.

Results

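A set of 10 genes that macrophages use to take up, store and burn fatty acids, or that sense them, were followed in macrophages from aged and young mice around the day. They were chosen by name: Lpl, Cd36, Fabp4 and Fabp5 for uptake and transport, Plin2 and Pnpla2 for storage in droplets and release from them, Cpt1a for oxidation, Pparg and Ppard for the receptors, and Angptl4 as a secreted target of those receptors. The choice was made with earlier results of these data known. Counts of these genes beside shares of all genes are therefore descriptions. All 10 were listed among the 47643 genes of both tables. The aged mice were 18 to 20 months old and the young mice 2 to 3 months old, all C57BL/6, with no treatment named. Cells were harvested at ZT0, ZT4, ZT8, ZT12, ZT16, ZT20 and ZT24 (zeitgeber time in hours, the time kept by the lighting schedule) in groups of 3 libraries, which makes 14 groups and 42 libraries. RNA was measured by 3′-end sequencing, in which each transcript gives tags from its end, so that gene length does not enter the count. The labels name the cells only as macrophages, give no tissue of origin, and do not say whether the libraries of a group came from separate mice. The p-values below therefore measure the spread between these libraries, which may be technical in part.

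Lipoprotein lipase, the product of Lpl, splits the triglycerides of circulating lipoproteins into fatty acids, which CD36 carries across the membrane and the fatty acid-binding proteins of Fabp4 and Fabp5 carry through the cytosol. Fatty acids that are not used at once are stored as triglyceride in lipid droplets coated by perilipin 2 (Plin2), released again by adipose triglyceride lipase (Pnpla2), and brought into mitochondria through carnitine palmitoyltransferase 1a (Cpt1a). The same fatty acids are ligands of the nuclear receptors PPARγ (Pparg) and PPARδ (Ppard), which bind DNA with a retinoid X receptor and drive many of these genes, and Angptl4 encodes a secreted inhibitor of lipoprotein lipase. In macrophages this programme is best known from foam cells and from resident cells that handle lipid-rich material.

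Values are read counts recovered from the deposited tables and put on 1 scale for all 42 libraries ("rescaled reads"). Library totals ran from 4864402 to 15587030 reads in aged macrophages (median 8159784) and from 7433159 to 13574542 reads in young macrophages (median 9847012). Of 8 macrophage markers tested, 1 was higher in aged cells (Cd14, log2 fold 0.18) and 2 lower (Lyz2, -0.25, and Cd68, -0.18), and their sum ran from 178334 to 315082 rescaled reads in aged libraries and from 222331 to 334929 in young ones. Adgre1 (F4/80) had a median of 6217 rescaled reads in aged and 5960 in young cells, and Itgam (CD11b) 14126 in aged and 13844 in young cells. Of the markers of other cells that make much lipoprotein lipase or perilipin, the adipocyte genes Lep and Cidec were at 0 in 21 of 21 aged libraries, with Lep above 0 in 1 young library and Cidec in 2. The adipocyte gene Adipoq was at 0 in 17 aged and 16 young libraries. The summed level of the 7 adipocyte markers ran from 4.78 to 498 in aged libraries (median 30.0) and from 10.8 to 46.7 in young libraries (median 27.0), nearly all of it Plin1. The 6 endothelial markers summed to at most 22.2 in an aged library and 17.3 in a young one. All 4 B cell markers tested were higher in aged cells, with a summed median of 6659 against 4275 rescaled reads in young cells. Of 4 monocyte and dendritic cell markers tested 2 were lower and 0 higher, with a summed level of 1062 to 3997 in aged libraries (median 1595) and 1427 to 4484 in young ones (median 3049). Among them Ccr2 had a log2 fold of -0.92 ± 0.11 (SE; limma adjusted p = 1.27e-08) and Ly6c2 one of 0.61 ± 0.32 (limma adjusted p = 0.172). The mesothelial and fibroblast markers summed to 24.7 to 107 rescaled reads in aged libraries (median 47.8) and to 0 to 25.3 in young ones (median 4.45), and Dcn, the only one tested, was higher in aged cells (log2 fold 3.35 ± 0.36, limma adjusted p = 2.25e-09). The T cell gene Cd3d was higher in aged cells (1.03 ± 0.27), as was the neutrophil gene S100a8 (0.79 ± 0.14), while the neutrophil gene Retnlg was lower (-1.62 ± 0.33). Beyond the covariate fits given below, the part of such cell markers in the results was not tested.

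Lpl had the lowest adjusted p of the set in the comparison of the ages. Aged macrophages had from 1103 to 6398 rescaled reads of Lpl over 21 libraries (median 3185), against 3519 to 18174 in young macrophages (median 9037). At ZT0 the aged libraries held 4465, 2308 and 4892 rescaled reads and the young libraries 9076, 6110.4 and 8219. The gap was present at the start of the day, with each aged library below each young one. At ZT4 the values were 5373, 6398 and 5504 in aged cells and 18174, 10707.5 and 14731 in young cells. At ZT8 they were 1646, 3192 and 2434 in aged cells and 11266, 14154 and 16698 in young cells. Young cells thus kept their ZT4 level at ZT8, whereas every aged library at ZT8 lay below every aged library at ZT4. At ZT12 aged cells held 2230.5, 2151 and 1103 rescaled reads and young cells 6324, 6147 and 4807. At ZT16 the aged values of 3821, 2957 and 1532 lay across the young values of 3519, 3725 and 3713. ZT16, the lowest point of the young course, was the only time at which the ages overlapped. At ZT20 aged cells held 2238, 3185 and 4245 rescaled reads and young cells 7657, 10085 and 7562. At ZT24 aged cells held 2722, 3648 and 4325 rescaled reads and young cells 9444, 9037 and 9542. All 3 aged libraries were thus below all 3 young libraries at 6 of 7 times, a pattern held by 0.712% of the genes tested.

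Averaged over the 7 times, Lpl was lower in aged macrophages by a log2 fold of -1.43 ± 0.11 (SE), that is 0.372 times the young level (limma on log2(rescaled reads + 1), Benjamini-Hochberg adjusted p = 1.55e-13). Tested at single times, Lpl passed the threshold of an adjusted p under 0.05 at 5 of 7, and 0.414% of the genes tested passed it at 5 or more. The log2 fold was -1.31 at ZT4, -2.57 at ZT8, -1.71 at ZT12, -1.42 at ZT20 and -1.41 at ZT24, each ± 0.28 (SE). At ZT0 it was -1.06 (limma adjusted p = 0.0533) and at ZT16 -0.50 (limma adjusted p = 0.551). The SE is equal at each time because the fit shares 1 spread over all 14 groups. It is not the spread measured at that time. The within-group SD of Lpl on the log2 scale was 0.495 in aged and 0.246 in young cells. Over all genes the share called was 0.794% at ZT0, 1.35% at ZT4, 4.01% at ZT8, 2.08% at ZT12, 1.06% at ZT16, 1.65% at ZT20 and 2.09% at ZT24. The ZT4, ZT20 and ZT24 calls each rested on 1 library: the adjusted p was 0.0538 at ZT4 without young replicate 1, 0.0759 at ZT20 without aged replicate 1 and 0.0666 at ZT24 without aged replicate 1. In bulk RNA of this kind, fewer cells that express a gene and less RNA of it per cell cannot be told apart. With the mean log2 levels of the B cell, T cell and mast cell markers as covariates the Lpl difference still passed the threshold. Resident macrophage, monocyte, mesothelial, fibroblast and neutrophil markers were not in that fit, which does not tell those cases apart.

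Around the day, 3 of the 10 genes were rhythmic in young macrophages (Lpl, Plin2 and Fabp4; a 24-hour cosine fit, adjusted p under 0.05), where 3.62% of all genes tested were called. The 10 were chosen with earlier results of these data known, so this excess is no test of the set. In aged macrophages 0 of the 9 genes tested were called, where 0.308% of all genes were called, and 3 of the 9 had an unadjusted p under 0.05, as 9.01% of all genes did. Lpl in young cells swung 3.20-fold between trough and peak, with the fitted peak at ZT 4.50 ± 0.43 h (SE; limma adjusted p = 7.28e-06). In aged cells the fitted Lpl swing was 2.22-fold with a peak at ZT 1.43 ± 0.99 h (limma adjusted p = 0.155). The test of the difference in rhythm between the ages did not pass the threshold for Lpl (limma adjusted p = 0.999), so no difference in its daily course was established.

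**Figure D1:**
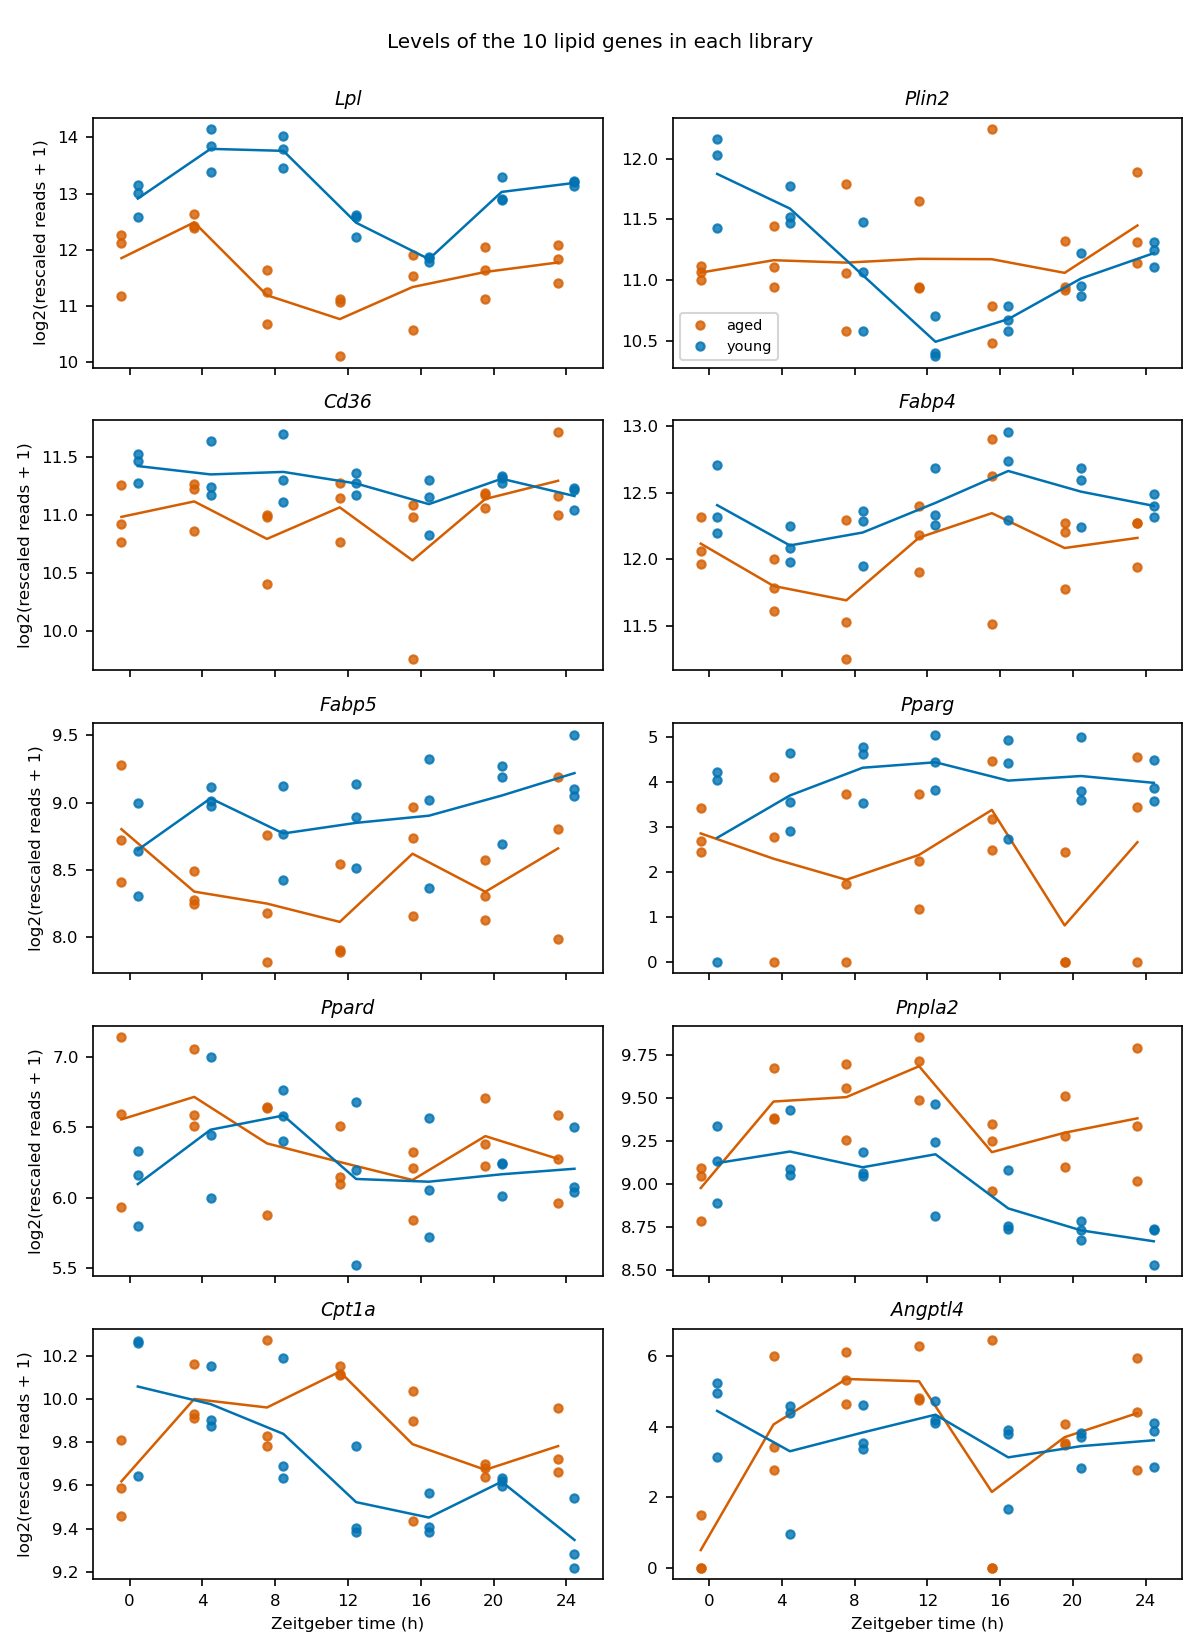
Level of each of the 10 genes, as log2(rescaled reads + 1), against zeitgeber time in hours, with 1 point per library, 3 per age and time, and lines through the group means; aged libraries are orange and set to the left, young libraries blue. All aged libraries lie below all young ones in Lpl at every time but ZT16, the Plin2 means of young cells drop between ZT0 and ZT12, and points at 0 in Pparg and Angptl4 are libraries without a read.

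Plin2, the gene of the main droplet coat protein outside fat tissue, differed from Lpl in that its mean level did not pass the test between ages, while its daily course was called in young cells. Its mean was 2420 ± 825 rescaled reads in aged and 2381 ± 889 in young macrophages (SD, n = 21 libraries each), a log2 fold of 0.04 ± 0.11 (limma adjusted p = 0.815). In the aged libraries Plin2 stood at 2050.1, 2144 and 2218 rescaled reads at ZT0, against 4583, 4175 and 2763 in the young ones. At ZT4 it stood at 2783, 1963 and 2207 in aged and at 2939, 2844 and 3494 in young cells. At both times each aged library was below each young one. At ZT8 the values were 3545, 1528 and 2136 in aged and 2138.5, 1533.5 and 2848 in young cells. At ZT12 they were 3219.5, 1953 and 1964 in aged and 1347, 1325 and 1671 in young cells. The order had turned round by then, with each aged library above each young one. At ZT16 aged cells held 4854, 1765 and 1432 rescaled reads and young cells 1763, 1529 and 1631. At ZT20 aged cells held 1931, 1964 and 2560.1 and young cells 2389, 1978 and 1866. At ZT24 aged cells held 3805, 2262 and 2539 and young cells 2427, 2202 and 2546. The ages overlapped at ZT8 and from ZT16 on. How many of all genes turn round in this way was not counted.

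In young macrophages Plin2 swung 2.19-fold, with its fitted peak at ZT 1.90 ± 0.54 h (limma adjusted p = 2.67e-05). In aged macrophages the fitted swing was 1.05-fold (limma adjusted p = 0.988). The difference in rhythm did not pass the threshold (limma adjusted p = 0.999, and 0.244 without the ZT24 libraries). None of the 10 genes passed this test, where 0.0% of all genes did. Without adjustment, 3 of the 10 (Lpl, Plin2 and Cpt1a) had p under 0.05 in it, beside 4.09% of all genes. No aged minus young difference of Plin2 at a single time passed the threshold, the closest being ZT0 (log2 fold -0.81 ± 0.28, limma adjusted p = 0.198).

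Of the 10 genes, 6 had a promoter window in the RefSeq table used here (250 bases before to 50 bases after a transcript start, build GRCm38.p6, the patch level of mm10). The windows of Plin2 and Cpt1a are shown because these genes were highest in the same young libraries, as described below. Capitals mark AGGTCA, the letters of the single nuclear receptor site, here read on the reverse strand as TGACCT, and the E-box CACGTG, the core letters bound by the clock factors CLOCK and BMAL1 among many others. The Plin2 window is chr4:86670010-86670309, minus strand, and the Cpt1a window chr19:3323051-3323350, plus strand.
Plin2: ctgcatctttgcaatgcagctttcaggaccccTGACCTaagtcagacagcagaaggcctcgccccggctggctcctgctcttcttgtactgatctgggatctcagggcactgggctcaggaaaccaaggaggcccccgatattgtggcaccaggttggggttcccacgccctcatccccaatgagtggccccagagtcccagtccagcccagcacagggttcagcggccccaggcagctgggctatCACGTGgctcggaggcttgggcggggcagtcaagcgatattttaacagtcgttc
Cpt1a: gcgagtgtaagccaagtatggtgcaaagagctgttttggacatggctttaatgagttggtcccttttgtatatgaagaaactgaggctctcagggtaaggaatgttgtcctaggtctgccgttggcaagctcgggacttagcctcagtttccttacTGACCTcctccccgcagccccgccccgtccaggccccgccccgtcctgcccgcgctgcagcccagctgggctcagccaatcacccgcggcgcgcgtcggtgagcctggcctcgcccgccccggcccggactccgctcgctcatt
In the Plin2 window the E-box begins 4 bases upstream of the start and the receptor site 218 bases upstream, and in the Cpt1a window the receptor site begins 94 bases upstream. AGGTCA is not particular to this pair. It was also in the Cd36 window (228 bases upstream) and in Pparg windows (28 and 9 bases upstream). Another Pparg window and those of Pnpla2 and Ppard lacked it. Searched on both strands, CACGTG was present in 7.15% and AGGTCA in 16.3% of the 32851 windows of all genes. A direct repeat of AGGTCA with 1 base between the copies, the form of a full PPAR element, was in 0.0396% of the windows and in none of the 8 windows of these genes.

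The uptake and transport genes other than Lpl were also lower in aged macrophages, by smaller amounts. Cd36, the fatty acid translocase, ran from 867 to 3375 rescaled reads in aged libraries (median 2137) and from 1822 to 3335 in young libraries (median 2490). Its log2 fold was -0.28 ± 0.08 (SE, limma adjusted p = 0.00875). Fabp4 ran from 2435 to 7646 rescaled reads in aged (median 4285) and from 3955 to 7949 in young libraries (median 5100.0), a log2 fold of -0.33 ± 0.09 (limma adjusted p = 0.0037). Its fitted fold was below 0 at each of the 7 times, as it was for 8.87% of all genes, although the libraries overlapped at 6 of them. Fabp5 ran from 224 to 619 rescaled reads in aged (median 338) and from 315 to 726 in young libraries (median 514), a log2 fold of -0.48 ± 0.10 (limma adjusted p = 0.000441). With the mean log2 levels of the B cell, T cell and mast cell markers as covariates, the adjusted p was 0.203 for Cd36 and 0.171 for Fabp4, with log2 folds of -0.27 and -0.30. Whether the counting split reads between Fabp5 and its processed pseudogenes is not given in the sources used here.

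Fabp4 was also rhythmic in young cells, and its time was nearly opposite to that of Lpl. It swung 1.42-fold with a fitted peak at ZT 17.5 ± 0.81 h (limma adjusted p = 0.0332). In aged cells the fitted swing was 1.46-fold with a peak at ZT 18.0 ± 1.3 h, but it did not pass the threshold (limma adjusted p = 0.561). The young call was lost when any of 6 young libraries was left out. The adjusted p was 0.122 without a filter on low genes and 0.0533 without the ZT24 libraries. With time as 7 levels, a test of any difference among the times, it was 0.220. Cd36 and Fabp5 were not called rhythmic at either age (limma adjusted p in young cells 0.571 and 0.808).

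Pnpla2 and Cpt1a, which release and burn stored fatty acids, were the 2 genes of the set that were higher in aged macrophages. Pnpla2 had a log2 fold of 0.38 ± 0.06 (SE), or 1.30 times the young level (limma adjusted p = 1.48e-05). It had 883, 646 and 517 rescaled reads in the aged libraries at ZT24 and 426, 369 and 425 in the young ones, the time of its only single-time call (log2 fold 0.71 ± 0.17, limma adjusted p = 0.0173, where 2.09% of genes were called). All 3 aged libraries lay above all 3 young libraries at ZT8, ZT12, ZT20 and ZT24, and 3.28% of genes did so at 4 or more times. The ZT24 call was lost without young replicate 2 (adjusted p = 0.102), aged replicate 1 (0.271) or aged replicate 2 (0.0617), with the marker covariates (0.0993) and on the tables as deposited (0.0614). On the values as deposited in the 2 separately normalized tables, where the median log2 fold of all genes was -0.24, Pnpla2 was at 0.14 (limma adjusted p = 0.0575).

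Cpt1a had 1110.1, 1107 and 1139 rescaled reads in the aged libraries at ZT12 and 666, 676 and 880 in the young ones. Aged cells were higher there by a log2 fold of 0.61 ± 0.16 (limma adjusted p = 0.034), a call that was lost when any of 5 of the 6 libraries at that time was left out (adjusted p up to 0.192). At ZT0 the order was the other way for 2 of 3 young libraries, with 898, 703 and 767 rescaled reads in aged and 1233, 1227 and 800.2 in young cells. Over the 7 times the log2 fold was 0.16 ± 0.06 (limma adjusted p = 0.0467), and it was -0.08 on the tables as deposited. That call was close to the threshold: it was lost under edgeR (adjusted p = 0.0581), without the ZT24 libraries (0.245) and without any of 27 single libraries (up to 0.0912). Cpt1a was not called rhythmic in young cells by the cosine fit (limma adjusted p = 0.188), but was by that fit without the ZT24 libraries (0.0108). With time as 7 levels the adjusted p was 0.0164. That fit tests any difference among the times, with ZT0 and ZT24 held apart, and is not a test of a daily rhythm. The log2 fold of Cpt1a in young cells, ZT24 minus ZT0, was -0.71 ± 0.16. How far this difference entered the result with 7 levels was not tested.

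The 2 receptors stood far lower than most of the genes they are known to drive. Pparg, the fat cell and macrophage receptor, had from 0 to 22.6 rescaled reads in aged libraries (median 4.61, 5 libraries at 0) and from 0 to 32.4 in young libraries (median 15.6, 1 library at 0). Its log2 fold was -1.60 ± 0.42 on the scale with 1 read added (limma adjusted p = 0.00386), and it ran from -1.98 to -0.98 over the other settings tried, past the threshold in each. In the aged table its mean of 6.36 was under the minimum of 10 for the rhythm test. At such depths a library at 0 allows up to 3 reads, or 2.93 to 4.50 rescaled reads. An antisense gene model overlaps Pparg, and whether the counting used strand is not given in the sources used here. Ppard, the receptor found in most tissues, had a median of 82.4 rescaled reads in aged and 74.4 in young libraries, with a log2 fold of 0.14 ± 0.12 (limma adjusted p = 0.436).

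Angptl4 was also low, and uneven between libraries. It ran from 0 to 86.6 rescaled reads in aged libraries (median 16.0, 4 libraries at 0) and from 0.931 to 37.0 in young libraries (median 13.8). Its mean level did not pass the test (log2 fold -0.10 ± 0.41, limma adjusted p = 0.901). At ZT0 the aged libraries held 0, 0 and 1.83 rescaled reads and the young ones 37.0, 30.2 and 7.80 (limma adjusted p = 0.0715). At ZT8 the order was reversed, with 68.3, 23.9 and 38.9 in aged and 10.7, 9.24 and 23.4 in young cells, and at ZT12 aged cells held 76.9, 27.2 and 26.3 against 25.5, 17.3 and 16.2 in young cells. Neither of these times passed the threshold, and the share of all genes with such a reversal was not counted.

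In all, 7 of the 10 genes differed in mean level between the ages, 2 higher and 5 lower in aged macrophages, where 23.7% of all genes were called (12.0% higher and 11.7% lower). Because the set was chosen with earlier results of these data known, this excess is no test of the set. With the marker covariates 4 of the 7 calls remained (Lpl, Fabp5, Pparg and Pnpla2). The median log2 fold of the 10 was -0.19, and that of all 12086 genes tested 0.0033. Between ZT24 and ZT0, times that bracket a full day, 0 of the 10 genes were called in aged cells and 0 in young cells, where 0.0% and 0.00827% of all genes were. In young cells Plin2 and Cpt1a were lower in all 3 libraries of ZT24 than in all 3 of ZT0. Their log2 folds were -0.65 ± 0.28 and -0.71 ± 0.16 (limma adjusted p = 0.9997 and 0.315). The share of all genes separated in this way was not counted. Without young ZT0 replicate 3 this Cpt1a difference was called (-0.92, limma adjusted p = 0.0168). Ranked by median, Fabp4 and Lpl were the most abundant in aged cells and Lpl and Fabp4 in young cells, followed at both ages by Plin2 and Cd36, whose ranges over libraries overlapped, then by Cpt1a, Pnpla2, Fabp5 and Ppard.

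**Figure D2:**
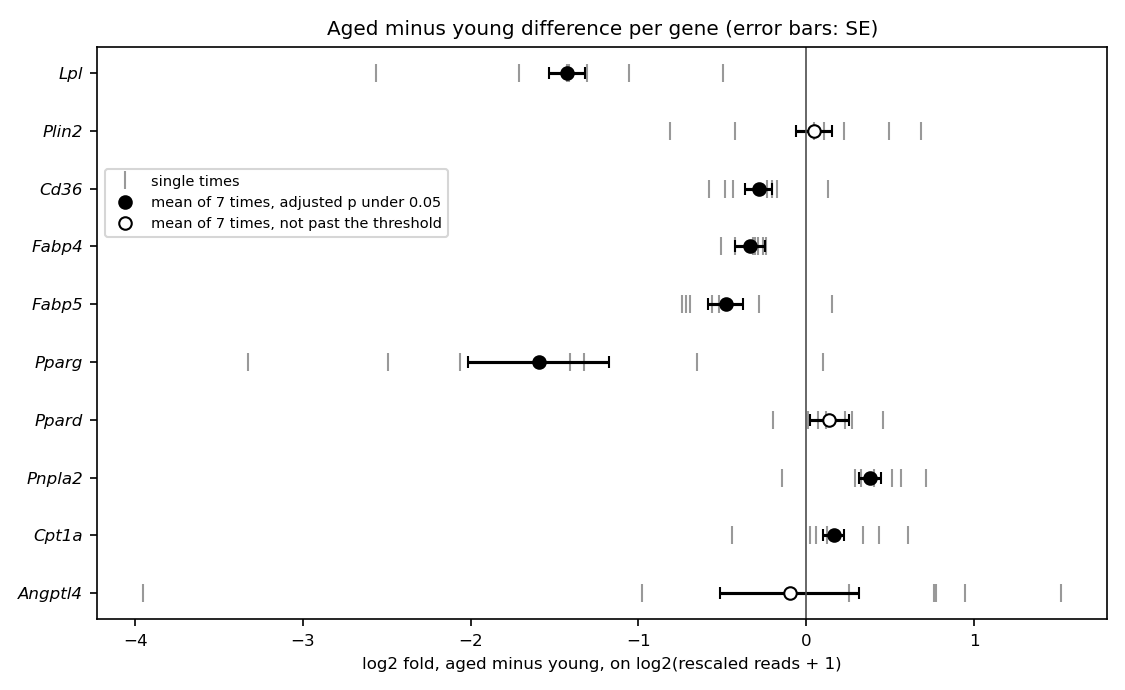
Log2 fold, aged minus young, of each gene on log2(rescaled reads + 1): circles with SE bars are the mean over 7 times, filled where the adjusted p was under 0.05, and grey ticks are the 7 single times. Lpl (-1.43) and Pparg (-1.60) lie farthest to the left, Cd36, Fabp4 and Fabp5 between -0.28 and -0.48, and Pnpla2 (0.38) and Cpt1a (0.16) to the right.

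The spread among libraries of the same time was at least 1.5 times as large in aged as in young cells in 5 of the 10 genes. The within-group SD on the log2 scale was 0.495 in aged and 0.246 in young cells for Lpl, 0.494 and 0.258 for Plin2, 0.376 and 0.188 for Cd36, 0.391 and 0.229 for Fabp4, and 1.75 and 1.09 for Angptl4, ratios of 2.01, 1.91, 2.00, 1.71 and 1.60. The median ratio over all genes was 1.15, and 21.3% of genes had a ratio of at least 1.5. The ratio was 1.40 for Pparg, 1.26 for Fabp5, 1.19 for Pnpla2, 0.976 for Ppard and 0.865 for Cpt1a. These ratios were not tested. When aged ZT8 replicate 1 and aged ZT16 replicate 3, which deviated most from their groups, were both left out (an alternative chosen after seeing the data), the set again had 7 calls in mean level.

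In some pairs of these genes the same library of a group was often the highest. Replicate 1 had the most Angptl4 in 5 of 7 aged groups, with 63.0, 68.3, 76.9, 86.6 and 61.5 rescaled reads at ZT4, ZT8, ZT12, ZT16 and ZT24, and the same library had the most Plin2 in each of those groups. In aged cells the library highest in Angptl4 was also the highest in Plin2 in 6 of 7 groups, a number that 1.56% of all other genes reached. In young cells that held in 2 of 7 groups. Among the 6 aged groups was ZT0, where the libraries held 0, 0 and 1.83 rescaled reads of Angptl4. In aged libraries at 0, 3 reads would be 3.27 to 4.06 rescaled reads. The ZT0 group is thus too low to rank in any aged count with Angptl4. With Lpl, Cd36, Fabp4, Fabp5, Ppard and Pnpla2 the aged library highest in Angptl4 coincided in 3 of 7 groups each, a number that 40.6% of all other genes reached. With Cpt1a it coincided in 5 of 7 (7.03% of other genes) and with Pparg in 2 of 7 (68.6%). Fabp4 and Fabp5 shared the highest library in 5 of 7 groups at both ages. In young cells so did Angptl4 with Lpl, and Pparg with Plin2, Cd36 and Cpt1a. In young cells the library highest in Plin2 was highest in Cpt1a in 7 of 7 groups, which 0.033% of other genes matched. In aged cells that held in 4 of 7 groups, as it did or more often for 17.0% of other genes. These pairs were picked out after their values were seen, and equal replicate numbers at different times are different samples. The aged ZT16 group shows the range: replicate 1 held 4854 rescaled reads of Plin2, 1427 of Hilpda (an inhibitor of adipose triglyceride lipase) and 2024 of Tgm2 (transglutaminase 2). Replicate 3 of that group held 1432 of Plin2, 395 of Hilpda and 375 of Tgm2, but 498 of Plin1 and 17370 of the chitinase-like gene Chil3, a gene with a median of 65.8 in aged cells.

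**Figure D3:**
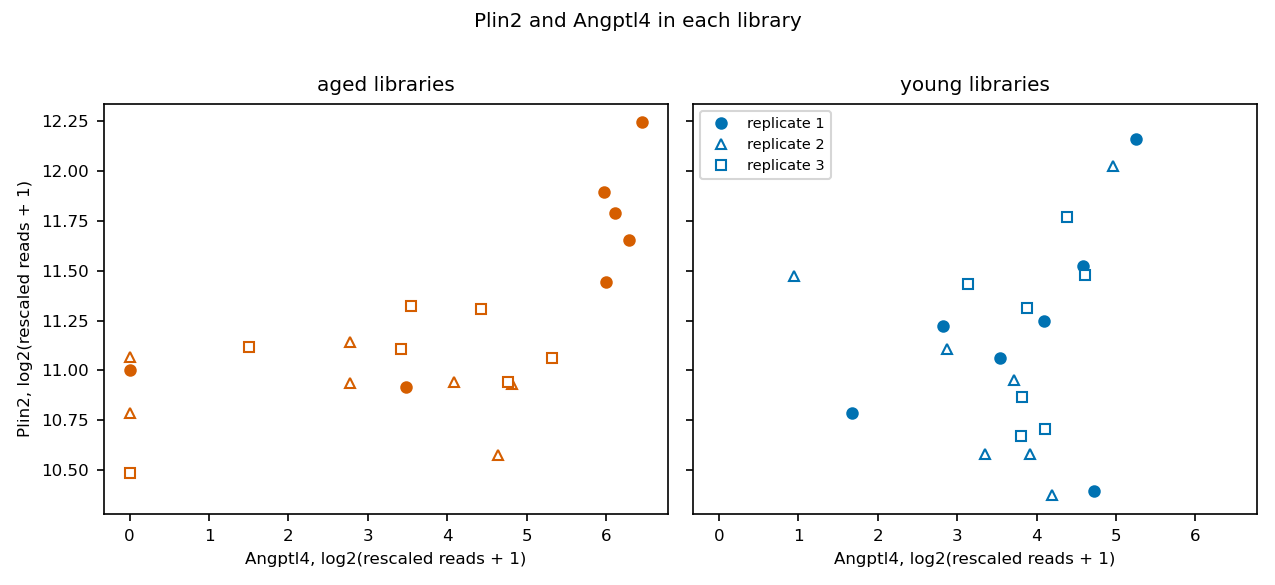
Plin2 against Angptl4, both as log2(rescaled reads + 1), with 1 point per library, aged on the left and young on the right, and the marker giving the replicate number. In aged cells 5 replicate 1 libraries, with 61.5 to 86.6 rescaled reads of Angptl4, form the upper right corner.

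Genes of the same pathways were counted in 6 lists, which were drawn up with earlier results of these data known. The lists include genes of the set above, so their counts are not independent of it. Among the 21 genes of fatty acid uptake and lipoprotein lipase control that were tested, 8 were lower and 1 was higher in aged macrophages, beside 11.7% lower and 12.0% higher of all genes. The number lower was 6 to 9 with single libraries left out, 4 with the marker covariates and 16 on the tables as deposited. Beyond Lpl, Fabp4, Fabp5 and Cd36, those lower were Acsl3 (an acyl-CoA synthetase, log2 fold -0.90 ± 0.09), Slc27a3 (a fatty acid transport protein, -0.69 ± 0.15), and Lmf1 and Lmf2 (-0.39 ± 0.15 and -0.20 ± 0.07). LMF1 is the chaperone that matures lipoprotein lipase. Olr1, a receptor for oxidized lipoprotein, was the one higher (0.56 ± 0.21). Acsl3 had from 41.6 to 124 rescaled reads in aged libraries and from 106 to 205 in young ones. The median log2 fold of the list was -0.10.

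Of 19 genes of droplet storage and triglyceride synthesis, 4 were higher (Gpat3, Agpat3, Lpin2 and Dgat1, log2 folds from 0.21 to 0.45) and 2 lower in aged cells (Agpat5 at -0.33 and G0s2, an inhibitor of adipose triglyceride lipase, at -1.51 ± 0.38). G0s2 was low, with a median of 7.47 rescaled reads in aged and 22.6 in young libraries. Of 10 lipolysis genes 1 was higher (Pnpla2) and 2 lower (Lpl and Lipa, the lysosomal acid lipase, at -0.20 ± 0.06). Of 32 genes of fatty acid oxidation 2 were higher (Cpt1a and the carnitine-acylcarnitine carrier Slc25a20, at 0.37 ± 0.11) and 3 lower (Hsd17b4, Acat1 and Crat, from -0.27 to -0.17), while 27 did not pass the test. Together these were 5 of 32, beside 23.7% of all genes, and the number lower was 0 with the marker covariates and 22 on the tables as deposited. Of 19 PPAR receptors and co-regulators 2 were higher (Nrip1 and Ncoa1) and 3 lower (Pparg, Cebpa and Ncoa3). All these counts stand beside 12.0% higher and 11.7% lower of all genes, and none is read as a result about its list. Over the other settings tried, 0 to 5 droplet genes were higher and 1 to 9 lower. For lipolysis the ranges were 0 to 1 and 1 to 7, and for receptors and co-regulators 0 to 2 and 1 to 13.

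PPAR target genes moved both ways. Of 27 tested, 6 were higher in aged macrophages (Tgm2, Nr1h3, Olr1, Pnpla2, Slc25a20 and Cpt1a) and 5 lower (G0s2, Lpl, Fabp5, Fabp4 and Cd36), and the list's median log2 fold was 0.0046. The background was 12.0% higher and 11.7% lower, and across the other settings tried 2 to 6 were higher and 3 to 14 lower. Tgm2 ran from 163 to 2024 rescaled reads in aged (median 368) and from 53.7 to 175 in young libraries (median 81.4), a log2 fold of 2.15 ± 0.17 (limma adjusted p = 1.51e-12). Nr1h3, the liver X receptor α that governs cholesterol export, had medians of 78.9 in aged and 51.1 in young cells (log2 fold 0.72 ± 0.19, limma adjusted p = 0.00364). Several genes stand in more than 1 list, so the counts are not independent of each other.

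**Figure D4:**
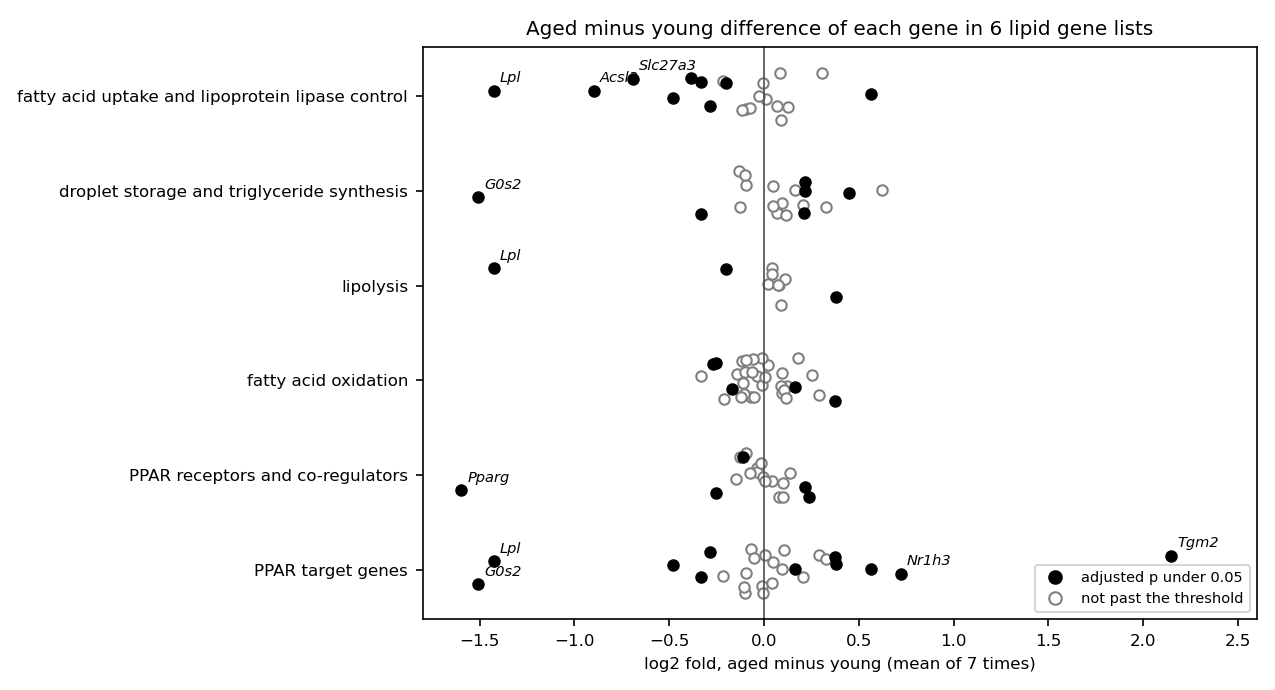
Log2 fold, aged minus young, over 7 times for every tested gene of 6 lists, filled where the adjusted p was under 0.05; vertical scatter within a list has no meaning and genes beyond 0.6 that passed are named. The uptake list has 8 filled points left of 0 and 1 right of it, and the PPAR target list 5 and 6.

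Daily rhythms in young cells were found in 1 to 5 genes of each list, of 10 to 32 tested, beside 3.62% of all genes. In aged cells 0 genes of any list were called, which is near the 0.308% of all genes and is no result about the lists. No gene of a list passed the test of a difference in rhythm between the ages. Beside Lpl and Plin2, the young rhythms with early-day peaks were Agpat3 of triglyceride synthesis (1.48-fold, ZT 1.44 ± 1.03 h), Slc25a20 (2.18-fold, ZT 3.64 ± 0.85 h) and Hadhb, the β subunit of the mitochondrial trifunctional protein (1.68-fold, ZT 3.91 ± 0.87 h). Etfb, which passes electrons from fatty acid oxidation to the respiratory chain, peaked at ZT 7.69 ± 0.85 h (1.37-fold). The later peaks were those of Fabp4, of the C/EBP transcription factor gene Cebpa (ZT 12.4 ± 0.89 h) and of Cebpb (ZT 19.6 ± 0.72 h). Slc25a20 had the widest swing of these after Lpl and Plin2. At ZT4 its values were 111, 149 and 135 rescaled reads in aged and 222, 185 and 162 in young cells. At ZT12 they were 174, 189 and 131 in aged and 67.3, 48.5 and 80.3 in young cells. As with Plin2, aged libraries were the lower at ZT4 and the higher at ZT12, but the difference in rhythm of Slc25a20 did not pass the test. The share of all genes that cross in this way was not counted.

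**Figure D5:**
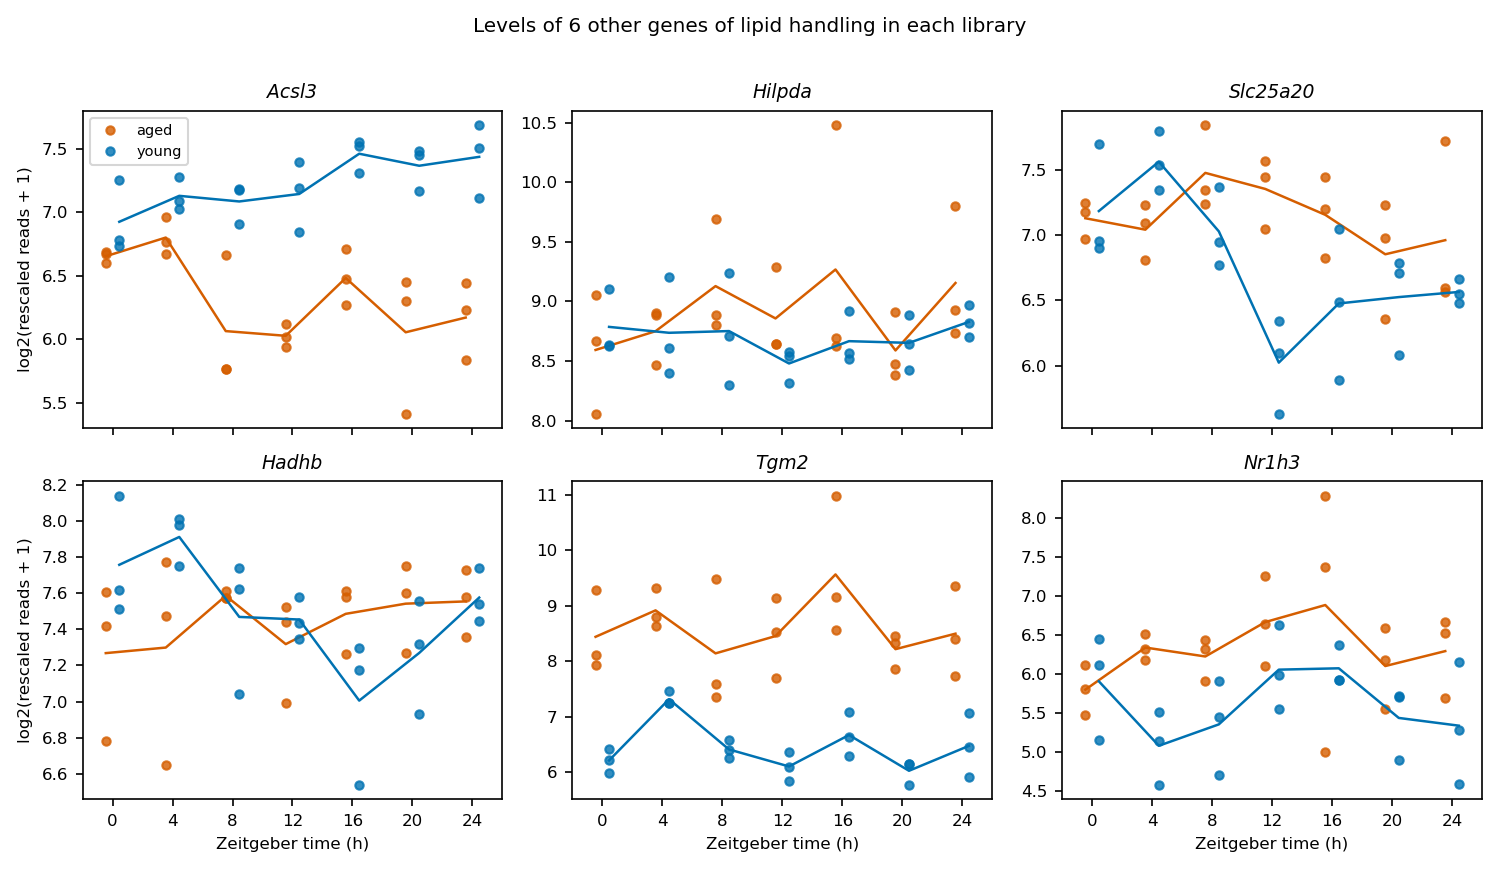
Levels of Acsl3, Hilpda, Slc25a20, Hadhb, Tgm2 and Nr1h3, as log2(rescaled reads + 1), against zeitgeber time in hours, 1 point per library and lines through group means, aged in orange and young in blue. Tgm2 lies higher in aged cells and Acsl3 lower, and 1 aged library at ZT16 stands above its group in Hilpda, Tgm2 and Nr1h3.

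The genes whose 14 group means ran most like those of 9 of these genes were listed by Pearson's r, as a description over points that share the age difference and their libraries. For Lpl they were Gstz1 (r = 0.92), Hnrnpa3 (0.89) and Ube2t (0.89). For Plin2 they were Trp53bp1 (0.83), Ppp2r1a (0.79) and Mettl9 (0.78). Fabp4 ran closest to Setdb1 (0.95), Cd36 to Stat4 (0.84), Fabp5 to Mycbp (0.93), Pparg to Tmem189 (0.97) and Ppard to Chd9 (0.85). Angptl4 ran closest to Ube3b (0.84) and Cpt1a to Macrod1 (0.89), with Acaa2, a thiolase of mitochondrial fatty acid oxidation, also among the 3 for Cpt1a (0.83).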

How the data were processed

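The authors deposited 2 tables, 1 per age, of 47643 genes by 21 libraries, in which each signal value is a read count divided by a size factor. STAR, DESeq2 and build mm10 are named in the submitters' processing notes, with no versions. Dividing by each library's smallest value gave whole reads for 100% of values (tolerance 0.001). Because the tables were normalized separately, comparisons between ages used the reads of both tables after a joint scaling by median-of-ratios size factors. Genes were kept at a mean of at least 10. Rhythms were tested within each deposited table, on log2(value + 1), with a cosine and sine of 24 h in limma 3.58.1 (R 4.3.3). Levels were contrasts of 14 group means, with 1 estimate of the spread per gene shared by all groups. Benjamini-Hochberg adjustment ran over all genes tested, and an adjusted p under 0.05 was called. Alternatives included edgeR 4.0.16 (quasi-likelihood) and DESeq2 1.42.0 on the recovered reads, other pseudocounts, filters and scalings, and leaving out each library. With time as 7 levels, the fit had no cosine and kept ZT0 and ZT24 apart, so it did not test a daily rhythm. The scripts were tested on simulated data. The 10 genes, the lists and the rules for named genes (up to 4 of a list by level and 2 by young rhythm, lowest p first, plus every gene called) were chosen with earlier results of these data known. Gene names and positions were taken from GENCODE for GRCm38, and 47224 of the identifiers matched. The likeness result of Pnpla2 is not reported here.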

Additional observations from a re-analysis of the deposited data

Results flagged for a closer look

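Plin2 was marked because all 3 aged libraries lay on one side of all 3 young libraries at 1 time and on the other side at another. The aged minus young log2 fold of Plin2 at ZT12 exceeded that at ZT0 by 1.50 and that at ZT4 by 1.11. Plin2 was marked again because all aged libraries of ZT24 lay above all aged libraries of ZT0, and all young ones below, a difference of 1.04 between the 2 log2 folds. Angptl4 was marked in the same way, its log2 fold at ZT8 and ZT12 exceeding that at ZT0 by 5.47 and 4.90. For Angptl4 those values are set in part by the 1 read added before the log, since the aged ZT0 libraries held 0, 0 and 1.83 rescaled reads. These single pairs of times were not tested, and the share of all genes that would be marked in the same way was not counted. The test of age by time over all 7 levels gave a limma adjusted p of 0.865 for Plin2 and 0.910 for Angptl4. Groups of 3 libraries were too small for the check for single outlying samples.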

How the results depend on the processing

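The count of young rhythmic genes, 438, became 236 without a filter, 262 without the ZT0 libraries and 696 with DESeq2. The aged count of 37 became 91 with DESeq2. The difference in rhythm, 0 genes by limma and 494 at an unadjusted p under 0.05, had 7 at a pseudocount of 5, 5 at 0.5, 5 with upper quartile scaling, 3 with time as 7 levels, 4 without ZT0, 4 with edgeR and 7 with DESeq2, and from 0 to 6 with single libraries left out. The level count of 2863 became 7270 on the tables as deposited (582 higher, 6688 lower), 1358 with marker covariates and 2923 with scaling to total reads (1278 higher, 1645 lower). Single libraries left out gave 322 to 504 young, 26 to 45 aged and 2638 to 2994 level calls, and 2 to 3 young and 6 to 7 level calls among the 10 genes, which had 4 level calls with the covariates. The cause of these moves was not tested. On the tables as deposited, the log2 folds of Plin2, Ppard and Cpt1a were -0.20, -0.10 and -0.077. Plin2 ranged from -0.032 to 0.094 with single libraries left out. Angptl4, never called, was at 0.16 with a pseudocount of 5, 0.55 without ZT0, 0.077 with covariates, 0.16 with edgeR, 0.13 with DESeq2, 0.0024 with aged ZT8 replicate 1 and ZT16 replicate 3 both left out, and -0.40 to 0.056 with single libraries left out. Same-numbered libraries did not deviate together (median r of 0.0029 across ages, 147 pairs), and with the replicate block the counts were 387, 37, 0 and 2836, with 3, 0, 0 and 7 among the 10 genes. Of 2240 recomputed values for single genes, 2162 kept their side and direction. Most belong to results not called in the main fit, so this number says little about the calls. In 61 values a call of the main fit was lost, many of them of Cpt1a, and 14 were reversed in sign. Depth limits Pparg and Angptl4 most.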
